A study of Mus musculus with 6 samples.

Results

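The genes described here are 10 genes of the unfolded protein response and of the amino acid stress response: Hspa5, Dnajb9, Herpud1, Xbp1, Atf4, Atf3, Ddit3, Asns, Trib3 and Chac1. They were taken by symbol, as every probe set whose platform annotation names 1 of these genes and no other, which gave 19 of the 22626 probe sets on the array and 10 of the 12393 genes they name. A gene was tested if its log2 value was 4 or more on 3 or more arrays; all 10 genes, with 18 of the 19 probe sets, met this and were tested among 8382 genes; the remaining probe set, a further one for Atf4, lay below 3 on every array. The values are log2 expression values from GCRMA, so a difference of 1 is a 2-fold difference. The measured samples were 6 lines of mouse embryo fibroblasts grown under the same conditions for 2 passages, with 1 array each. The 3 chromosomally unstable lines were 2 BubR1 H/H lines, hypomorphic for this spindle checkpoint kinase and wild type for Cdc20, and 1 CDC20 AAA/AAA line, labelled hypomorphic for this activator of the anaphase-promoting complex and wild type for BubR1. The 3 stable lines, 2 BubR1 +/+ and 1 CDC20 +/+, were wild type at both loci. A number in the sample titles joins each unstable line to 1 stable line: the BubR1 lines form pairs 9515 and 9938, the CDC20 lines form pair 10074, and the CDC20 comparison rests on 1 line against 1. Whether each line stems from an embryo of its own is not in the labels, and the p-values therefore describe the spread among these lines only.

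The unfolded protein response senses misfolded protein in the endoplasmic reticulum (ER) through the membrane proteins IRE1, ATF6 and PERK and raises the folding and degradation capacity of that compartment. PERK shares its substrate, the translation factor eIF2alpha, with the kinases GCN2, HRI and PKR, which respond to amino acid shortage, heme shortage or other stress, and double-stranded RNA. Phosphorylated eIF2alpha slows protein synthesis in general but favours translation of ATF4, whose targets include amino acid transporters, amino acid synthesis enzymes and aminoacyl-tRNA synthetases. ATF4 and XBP1 are controlled largely by translation and by mRNA splicing, neither of which was measured here.

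The promoters of these genes hold some of the elements through which both responses are known to act. Windows from RefSeq (GRCm38.p6), from 250 bases before to 50 bases after the annotated start, were found for 10 of the 10 genes and searched on both strands for 5 motifs. An ER stress response element (ERSE, CCAAT and CCACG separated by 9 bases) was found in 1 of the 10, that of Hspa5, against 0.119% of 32817 windows. Its variant ERSE-II (ATTGG and CCACG separated by 1 base) was found in 1 of the 10, that of Herpud1, against 0.0366% of windows. The C/EBP-ATF response element bound by ATF4 (CARE, TGATGNAA) was found in 5 of the 10, those of Atf3, Asns, Trib3, Chac1 and Herpud1, against 3.97% of windows. The XBP1 core TGACGTGG and the cyclic AMP response element TGACGTCA were found in 0 of the 10, against 0.676% and 1.79% of windows. The 10 genes were chosen as known members of these responses, so these shares describe the windows only. The windows of 5 genes are shown because they hold the ERSE, ERSE-II and most CARE matches, with both kinds of element in that of Herpud1; capitals mark the matches, and each window is written in the direction of its gene.
Hspa5, chr2:34771840-34772139, plus strand: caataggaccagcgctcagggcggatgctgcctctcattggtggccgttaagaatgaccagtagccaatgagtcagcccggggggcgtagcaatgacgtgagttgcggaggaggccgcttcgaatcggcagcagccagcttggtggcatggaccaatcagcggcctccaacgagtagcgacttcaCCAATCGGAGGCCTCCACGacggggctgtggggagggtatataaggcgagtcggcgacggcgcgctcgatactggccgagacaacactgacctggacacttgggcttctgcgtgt
Herpud1, chr8:94386179-94386478, plus strand: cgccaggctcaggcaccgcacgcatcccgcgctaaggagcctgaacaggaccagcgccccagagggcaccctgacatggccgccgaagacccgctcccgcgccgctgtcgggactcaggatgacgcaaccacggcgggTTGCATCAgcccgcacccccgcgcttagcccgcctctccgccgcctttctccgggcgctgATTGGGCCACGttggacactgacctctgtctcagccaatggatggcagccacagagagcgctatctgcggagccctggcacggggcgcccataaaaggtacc
Asns, chr6:7693160-7693459, minus strand: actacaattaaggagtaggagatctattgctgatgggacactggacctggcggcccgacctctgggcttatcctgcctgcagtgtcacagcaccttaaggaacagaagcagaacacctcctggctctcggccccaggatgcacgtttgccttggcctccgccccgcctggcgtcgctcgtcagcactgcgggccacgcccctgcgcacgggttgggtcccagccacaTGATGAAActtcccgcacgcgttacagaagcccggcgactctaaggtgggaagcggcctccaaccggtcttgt
Trib3, chr2:152344011-152344310, minus strand: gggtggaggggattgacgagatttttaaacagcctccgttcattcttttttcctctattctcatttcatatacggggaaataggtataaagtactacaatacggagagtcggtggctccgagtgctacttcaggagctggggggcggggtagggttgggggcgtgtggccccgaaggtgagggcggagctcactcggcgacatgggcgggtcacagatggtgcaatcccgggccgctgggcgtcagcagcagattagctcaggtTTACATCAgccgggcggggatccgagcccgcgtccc
Chac1, chr2:119350992-119351291, plus strand: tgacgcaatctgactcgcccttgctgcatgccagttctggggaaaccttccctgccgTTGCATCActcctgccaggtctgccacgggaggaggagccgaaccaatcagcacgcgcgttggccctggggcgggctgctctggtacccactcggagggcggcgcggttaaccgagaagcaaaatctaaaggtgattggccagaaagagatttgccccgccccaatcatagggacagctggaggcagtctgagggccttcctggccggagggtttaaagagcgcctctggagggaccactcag
The ERSE of Hspa5 begins 65 bases and the ERSE-II of Herpud1 52 bases before the start. The CARE of Asns begins 23 bases before the start, and those of Herpud1 and Chac1, on the opposite strand, lie 112 and 193 bases before it. In Trib3 the match lies just downstream of the start.

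Bub1b, the gene of BubR1, measured 7.81, 8.51 and 7.61 in stable and 6.15, 6.43 and 7.00 in unstable lines (pairs 9515, 9938 and 10074 in that order), so it was lower in each unstable line and lowest in the H/H lines. All 16 fibroblast markers, such as Col1a1, were above 4 on all arrays. Of 12 epithelial, endothelial and muscle markers, 7 were below 4 on every array and 3 were above 4 on all. Those below included the epithelial Epcam and Cdh1, the endothelial Pecam1 and Cdh5 and the muscle regulators Myod1 and Myog. The epithelial Krt8 ran from 2.85 to 4.97 and the endothelial Kdr from 3.95 to 4.31. The lines nevertheless differed in other cells and programs: 21 of 23 macrophage and leukocyte markers were above 4 on all arrays, and those tested had median unstable minus stable differences of -0.18, 0.18 and -1.07 in pairs 9515, 9938 and 10074. The corresponding medians were -0.24, -0.65 and -0.74 for 22 proliferation genes and 0.38, 0.78 and 1.62 for 15 interferon-response genes. Xist, the RNA that coats the inactive X chromosome, was high in both lines of pair 9938, with 10.70 and 11.16, and between 2.24 and 2.94 elsewhere. In bulk RNA fewer cells of a type and less RNA per cell cannot be told apart, and the part of these differences in the results that follow was not tested.

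The 3 ER folding genes differed by less than 0.5 within each pair by every probe set, in both directions, and stable and unstable lines overlapped. Hspa5 encodes BiP, the main Hsp70 chaperone of the ER. In pairs 9515, 9938 and 10074, the order used throughout, it measured 12.90, 12.99 and 12.88 in the stable and 12.89, 12.99 and 12.79 in the unstable lines. The groups overlapped, and in both BubR1 pairs the lines differed by less than 0.01. The second probe set of Hspa5 gave 11.81, 11.92 and 12.19 in the stable and 11.83, 11.92 and 11.77 in the unstable lines, so that it too was flat in the BubR1 pairs but was 1.33-fold lower in the CDC20 AAA/AAA line than in its wild-type partner. Dnajb9, a J-domain co-chaperone of BiP (ERdj4), measured 11.18, 10.78 and 10.71 in the stable and 11.08, 11.06 and 10.89 in the unstable lines. It was lower in the unstable line of pair 9515 and higher in those of the other pairs, by 0.28 and 0.19. Herpud1, an ER membrane protein that assists the degradation of misfolded proteins, measured 10.74, 10.57 and 10.82 in the stable and 10.68, 10.78 and 10.63 in the unstable lines. Both of its probe sets were higher in the unstable line of pair 9938, by 0.20 and 0.25, and lower in those of the other pairs.

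**Figure D1:**
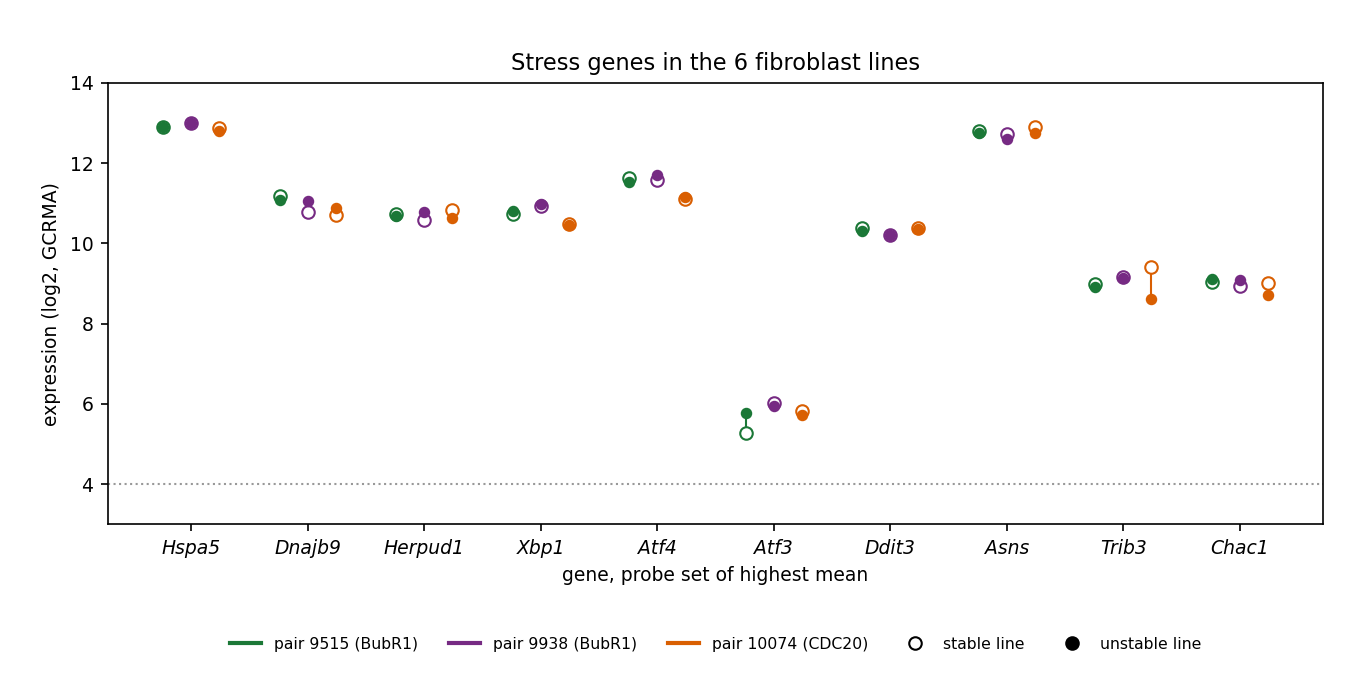
Log2 expression (y axis) of the 10 stress genes (x axis) in the 6 lines, by the probe set of highest mean, with open circles for stable and filled circles for unstable lines, a line joining each pair and a dotted line at the log2 value of 4 used as a filter; heights of different genes are not comparable. Stable and unstable lines overlap for every gene, and the widest gap within a pair is that of Trib3 in pair 10074, from 9.42 to 8.62.

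Among the transcription factors no gene had the same sign in every pair except Ddit3. Atf4, the central factor of the amino acid response, measured 11.62, 11.58 and 11.11 in the stable and 11.54, 11.71 and 11.16 in the unstable lines by its probe set of highest mean. Both CDC20 lines were lower than the BubR1 lines by that probe set, whereas its second one lay between 11.25 and 11.40 in all 6 lines, so the step between the loci was not shared by the 2 probe sets. Within pairs the second probe set of Atf4 differed by 0.02, -0.06 and -0.15. Xbp1, the ER stress factor whose mRNA is spliced by IRE1, measured 10.72, 10.93 and 10.49 in the stable and 10.80, 10.97 and 10.46 in the unstable lines. Of its 4 probe sets, 4 were higher in the unstable line of pair 9515 and 4 lower in that of pair 10074, with sizes that ran from 0.07 to 0.52 in the first and from -0.01 to -0.39 in the other. Atf3, a factor induced by many stresses, was measured by 1 probe set at 5.28, 6.03 and 5.84 in the stable and 5.78, 5.95 and 5.73 in the unstable lines. Its difference of 0.50 in pair 9515 came from the low stable line, and the other 5 lines lay within 5.73 to 6.03. Ddit3, which encodes the pro-apoptotic factor CHOP, measured 10.38, 10.22 and 10.39 in the stable and 10.30, 10.20 and 10.35 in the unstable lines. It was lower in each unstable line, by 0.08 or less, and the groups overlapped.

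Trib3, Chac1 and Asns, targets of ATF4 that act outside the ER, each had their widest pair difference in the CDC20 pair by the probe set of highest mean. Trib3, a pseudokinase that binds the kinase AKT and ATF4, measured 8.98, 9.17 and 9.42 in the stable and 8.91, 9.15 and 8.62 in the unstable lines. The CDC20 +/+ line was the highest and the CDC20 AAA/AAA line the lowest of the 6, a 1.74-fold difference, while the lines of pairs 9515 and 9938 differed by -0.07 and -0.02. The second probe set of Trib3 showed a smaller gap in the CDC20 pair, 1.39-fold. It gave 8.87 in the stable and 8.39 in the unstable line, the latter again the lowest of the 6. By that probe set the highest line was the unstable one of pair 9938, at 8.93, against 8.87 in its partner. Chac1, an enzyme that breaks down glutathione, measured 9.04, 8.95 and 9.02 in the stable and 9.12, 9.08 and 8.71 in the unstable lines. It was thus slightly higher in both BubR1 H/H lines than in their partners and 1.24-fold lower in the CDC20 AAA/AAA line, which was the lowest of the 6. Asns, which makes asparagine from aspartate and glutamine, measured 12.81, 12.74 and 12.91 in the stable and 12.74, 12.61 and 12.74 in the unstable lines. Both probe sets of Asns were lower in each unstable line, by 0.02 to 0.17, and the groups overlapped by the probe set of highest mean.

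**Figure D2:**
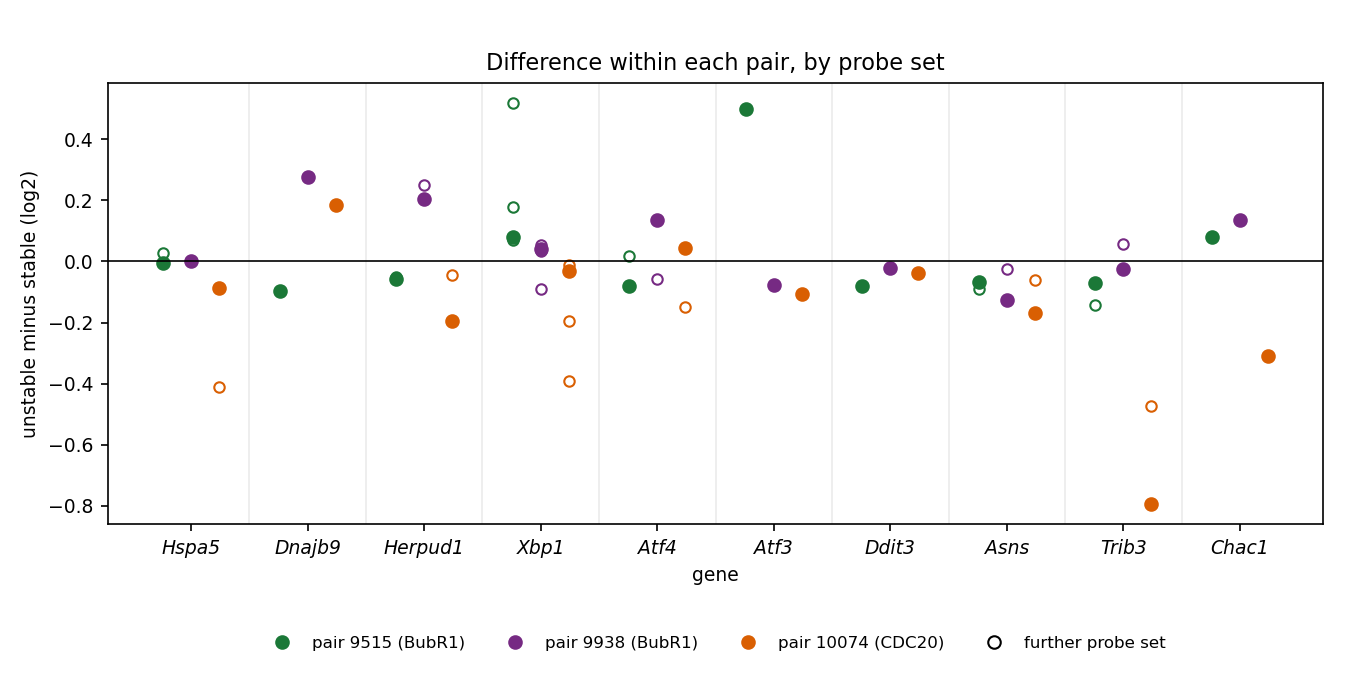
Unstable minus stable difference on the log2 scale (y axis) within each pair, for the 18 probe sets of the 10 genes (x axis) that passed the filter; filled points are the probe set of highest mean and open points further probe sets. By the probe set of highest mean 8 of the 10 genes lie below 0 in the CDC20 pair, 7 in pair 9515 and 4 in pair 9938, against 54.5%, 49.5% and 50.4% of all genes tested.

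Comparing all unstable with all stable lines asks whether chromosomal instability goes with a different level of these stress genes, and no difference passed the test. Of the 10 genes 0 passed at an adjusted p under 0.05 by limma, as did 0% of all 8382 genes, of which 359 had an unadjusted p under 0.05; of the 10 genes 0 did. With the pair as a block 0 genes passed as well, and the unadjusted count was 1019 (12.2% of genes), again with 0 of the 10. Trib3 had the widest difference, at -0.30 (SE 0.18, adjusted p = 0.999 by limma), with 8.89 ± 0.26 (SD, n = 3) in unstable and 9.19 ± 0.22 (SD, n = 3) in stable lines. That value is carried by pair 10074: it was -0.16 without the unstable and -0.18 without the stable line of that pair, and -0.05 without the pair when the pair number was fitted as a block. Next came Dnajb9 at 0.12 (SE 0.15; 0.03 when stable line 10074 was left out and 0.27 when stable line 9515 was), Asns at -0.12 (SE 0.094) and Atf3 at 0.11 (SE 0.21), and the other 6 genes lay between -0.05 and 0.03. The 95% intervals of the 10 differences reached 1.66-fold lower at most, for Trib3, and 1.52-fold higher at most, for Atf3. For Hspa5 the interval ran from -0.26 to 0.20, for Ddit3 from -0.28 to 0.19 and for Asns from -0.35 to 0.11. A doubling or a halving of the mean was therefore outside the interval of each gene, within the spread that these lines show. By the probe set of highest mean, 3 of the 10 genes (Asns, Ddit3 and Trib3) were lower in all 3 pairs, against 19.3% of all genes tested. Higher in all 3 pairs were 0 of the 10, against 16.9%. The second probe set of Trib3 was higher by 0.06 in pair 9938. None of the 10 had a pair difference of 1 or more in either direction, against 4.53% of all genes. The median of the widest pair difference was 0.19 for the 10 genes and 0.29 for all genes.

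Within the BubR1 lines, 0 of the 10 genes passed the test of H/H against +/+ (adjusted p under 0.05 by limma), as did 0% of all genes, of which 264 had an unadjusted p under 0.05, or 719 when the pair was a block. In pair 9515 the 10 genes had a median difference of -0.06 and in pair 9938 of 0.02, with 7 and 4 of the 10 lower, against 49.5% and 50.4% of all genes tested. By the probe set of highest mean, Asns, Ddit3 and Trib3 were lower and Xbp1 and Chac1 higher in both H/H lines than in their partners. Hspa5 differed by less than 0.01 in either pair. Dnajb9, Herpud1 and Atf4 were higher in the H/H line of pair 9938 and lower in that of pair 9515, and Atf3 was the reverse. The second probe set of Atf4 differed by 0.02 in pair 9515 and -0.06 in pair 9938. The share of all genes with opposite signs in these 2 pairs was not counted.

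The CDC20 pair was compared with the BubR1 pairs by testing the difference between the 2 effects. Of the 10 genes 8 were lower in the CDC20 AAA/AAA line than in its partner, against 54.5% of all genes tested; the exceptions were Dnajb9 and Atf4, and for Atf4 the second probe set was lower. The CDC20 effect minus the BubR1 effect passed the test for 0 of the 10 genes and for 0% of all 8382 (adjusted p under 0.05 by limma; 133 had an unadjusted p under 0.05, or 476 with the pair as a block). Trib3 was the 1 member below that value in either fit, with a CDC20 effect lower by 0.75 (SE 0.25, adjusted p = 1.0 by limma) and a 95% interval from -1.47 to -0.02. Leaving out any of the 4 BubR1 lines kept this value between -0.87 and -0.63, and a block for the pair gave an adjusted p = 0.636 by limma. Chac1 followed at -0.42 (SE 0.17), Atf3 at -0.32 (SE 0.52) and Herpud1 at -0.27 (SE 0.20), each with an interval that holds 0. For Hspa5, Xbp1, Asns, Ddit3, Atf4 and Dnajb9 the difference between effects lay between -0.09 and 0.10, with intervals that reached 0.44 or more on either side. These values, that of Trib3 included, are by the probe set of highest mean. With the mean of all probe sets of a gene the difference between effects was -0.59 for Trib3. By that mean it was -0.26 for Hspa5, -0.27 for Xbp1, -0.15 for Atf4 and -0.21 for Herpud1. For Atf4 that mean includes the probe set below the filter. As each CDC20 group is 1 line, its spread is taken from the BubR1 lines. Neither CDC20 line can be left out of this comparison. Leaving out BubR1 lines therefore does not show how stable the CDC20 part of the Trib3 value is. In this pair the macrophage markers Csf1r and Laptm5 were lower by 1.20 and 1.40 in the AAA/AAA line, and the macrophage list had a median of -1.07; the part of these cells in the values of Trib3 and Chac1 was not tested.

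**Figure D3:**
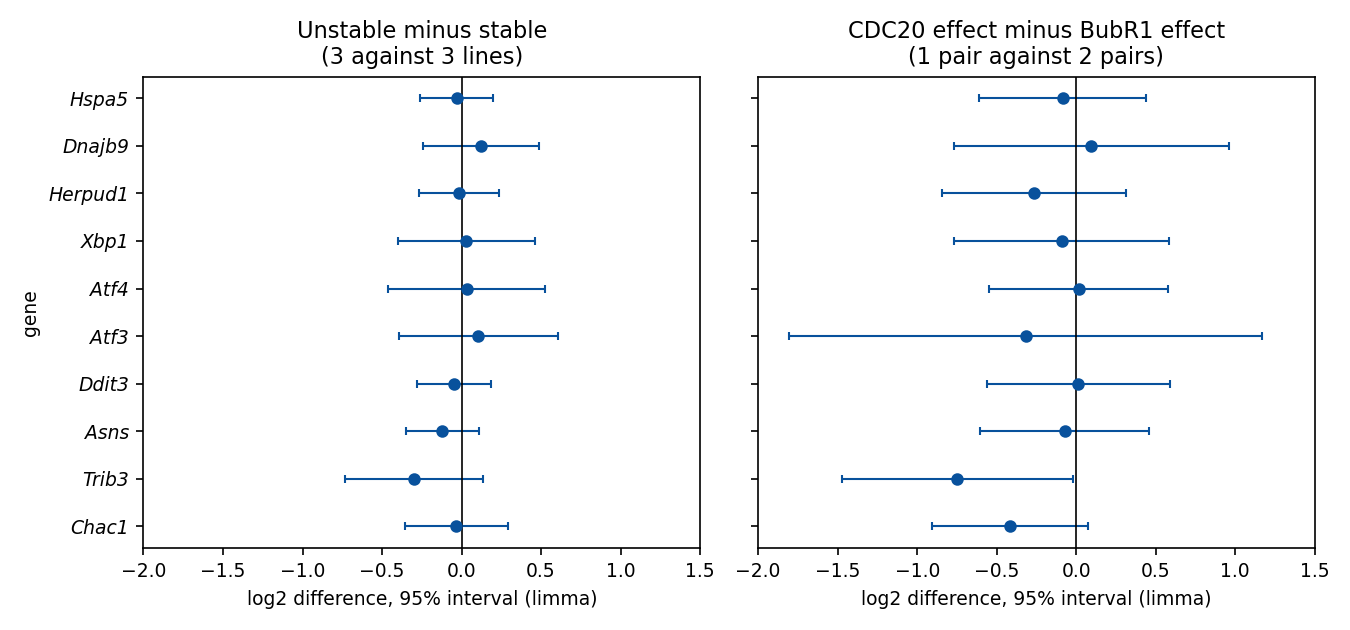
Differences on the log2 scale (x axis) with 95% intervals from limma for the 10 genes (y axis), on the left for 3 unstable minus 3 stable lines and on the right for the CDC20 effect minus the BubR1 effect, which rests on 1 pair against 2. On the left all 10 intervals hold 0; on the right that of Trib3, from -1.47 to -0.02, is the exception before adjustment over all genes. Each gene is shown by its probe set of highest mean.

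Genes of the wider pathways were described by 3 further lists. Of 39 tested ER folding and degradation genes, 13, 13 and 20 were lower in the unstable line of pairs 9515, 9938 and 10074, with medians of 0.05, 0.06 and -0.01, against all-gene medians of 0.001, -0.003 and -0.03. None passed the limma test in any of the 3 comparisons. By the smallest unadjusted p, Atf6, an ER stress sensor that becomes a transcription factor, was higher by 0.19 (SE 0.12) in unstable lines, Creb3l2, a related membrane-bound factor, by 0.17 (SE 0.12), and P4hb, a protein disulfide isomerase, lower by 0.15. Pdia6 and Pdia4, further disulfide isomerases, had pair differences of 0.31, -0.03 and -0.44 and of 0.79, 0.13 and -0.12, and Mbtps1, the protease that activates ATF6, of -0.01, 0.22 and -0.29. These 3 had the smallest p for the difference between the CDC20 and BubR1 effects and were all higher on average in the BubR1 H/H lines and lower in the AAA/AAA line, without passing the test. They were picked by that p, so the shared pattern is no further observation. The whole list had a median of -0.021 for that difference.

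The amino acid side of the response was described by its counts in each pair, since no gene of it passed the limma test in any comparison and the CDC20 values come from 1 line against 1. Of 35 tested genes of the amino acid response list 29 (82.9%) were lower in the AAA/AAA line, with a median of -0.22, against 18 of 35 in each BubR1 pair, with medians of -0.004 and -0.02. Of 18 aminoacyl-tRNA synthetases, which load tRNAs with amino acids, 17 (94.4%) were lower in the AAA/AAA line, with a median of -0.20, against 11 and 10 of 18 in pairs 9515 and 9938, with medians of -0.05 and -0.07. Over all genes tested 54.5% were lower in that pair, with a median of -0.03. By function, a division made after the values were seen, 7 of 8 solute carrier transporters were lower in the CDC20 pair, with a median of -0.37, against 3 of 8 in each BubR1 pair, with medians of 0.05 and 0.01. Of 10 synthesis enzymes 9 were lower in the CDC20 pair, with a median of -0.36, and 7 and 8 were lower in pairs 9515 and 9938, with medians of -0.02 and -0.18. Other lists also had mostly lower values in this pair: 13 of 16 fibroblast markers (81.2%, median -0.12), 22 of 22 tested macrophage and leukocyte markers (median -1.07) and 22 of 22 proliferation genes (median -0.74) were lower in the AAA/AAA line. The proliferation genes were also all lower in both BubR1 pairs, whereas 7 and 6 of the 16 fibroblast markers were lower there. The part of these lists in the amino acid values was not tested.

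The 3 genes of the amino acid list with the smallest p for the difference between effects were Slc7a11, the cystine transporter, Slc3a2, its partner chain, and Atf5, a stress-induced factor related to ATF4. Slc7a11 measured 5.15, 5.12 and 5.56 in the stable and 5.01, 5.13 and 4.83 in the unstable lines. As with Trib3 by its probe set of highest mean, its highest value was in the CDC20 +/+ and its lowest in the AAA/AAA line. The CDC20 effect on Slc7a11 was lower by 0.66 (SE 0.18), without passing the test. Slc3a2 measured 11.79 in the CDC20 +/+ line, 11.33 in the AAA/AAA line and 11.53 to 11.59 in the BubR1 lines. Atf5 was higher in both H/H lines, by 0.25 and 0.10, and lower by 0.44 in the AAA/AAA line. These 3 genes were picked by the p of the difference between effects. Their gap in the CDC20 pair is therefore no observation beyond that choice. Over all unstable lines the smallest p in the list belonged to Phgdh, which opens the serine synthesis pathway, at -0.37 (SE 0.12), followed by Eif2ak2 at 0.49 (SE 0.20) and the lipoprotein receptor gene Vldlr at -0.32 (SE 0.15), all with adjusted p = 0.999 by limma. With the pair as a block the adjusted p by limma was 0.292, 0.391 and 0.3 in that order. Phgdh and Vldlr were lower in each pair, by 0.21 to 0.50 and 0.25 to 0.40. Among the synthetases Wars, at -0.31 (SE 0.10), Vars, at -0.28, and Sars, at -0.27, came first in the same comparison, and Gars, Sars and Tars came first for the difference between effects, at -0.32, -0.31 and -0.25. Gars and Tars were within 0.06 of their partners in both BubR1 pairs and lower by 0.30 and 0.21 in the AAA/AAA line. They too were picked by the p of the difference between effects.

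**Figure D4:**
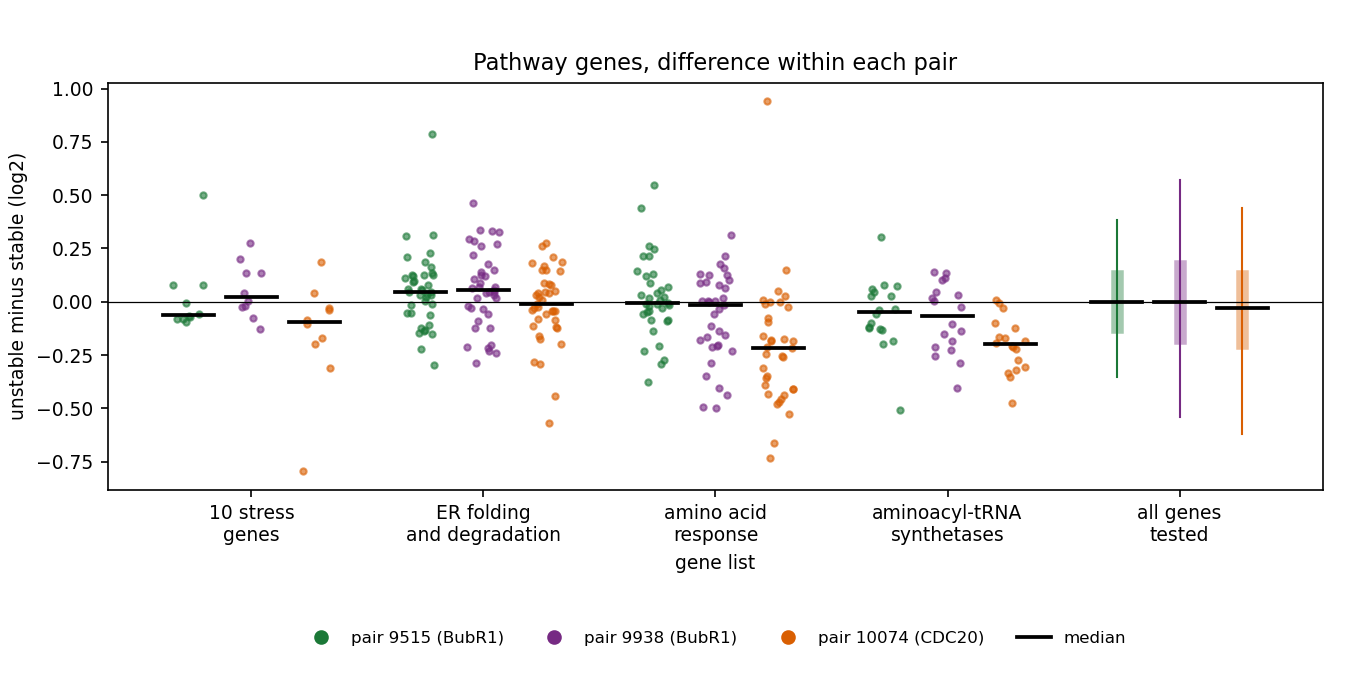
Unstable minus stable difference on the log2 scale (y axis) within each pair for the 10 stress genes, 3 further gene lists and all 8382 genes tested (x axis); points are genes, black bars medians, and for all genes thick lines span the middle 50% and thin lines the 5th to the 95th percentile. The medians of the amino acid response and synthetase lists lie at -0.22 and -0.20 in the CDC20 pair, whereas that of ER folding and degradation lies at -0.01.

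Of the tested upstream sensors, Eif2ak2 had the widest difference in pairs 9515 and 10074 and the smallest, 0.08, in pair 9938. Eif2ak3, which encodes PERK, had pair differences of -0.12, 0.29 and 0.17, Eif2ak4, which encodes the amino acid sensor GCN2, of 0.01, 0.22 and 0.03, and Eif2ak1, which encodes HRI, of -0.27, 0.13 and 0.05. Ern1, which encodes IRE1, was below 4 on every array and was not tested. Eif2ak2, which encodes the double-stranded RNA sensor PKR and is itself induced by interferon, measured 7.31, 7.36 and 7.29 in the stable and 7.75, 7.44 and 8.23 in the unstable lines. It was higher in each unstable line than in its partner, by 0.44, 0.08 and 0.94. Of all genes tested 16.9% were higher in all 3 pairs. Eif2ak2 did not pass the test of unstable against stable lines (adjusted p = 0.999, or 0.391 with the pair as a block, limma). The interferon-response list had medians of 0.38, 0.78 and 1.62 in the same pairs. Its part in the Eif2ak2 values was not tested.

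Of the 10 genes Trib3 varied the most over the 6 arrays (SD 0.27). Over all other genes tested, those with the pattern most like it were Angptl6, Slc35c1, Fuom, 2610507B11Rik and Fgfr1op2, with Pearson correlations of 0.967 to 0.978 over 6 arrays. These are the highest of 8381 correlations over 6 points from 3 pairs of lines, and 0.537% of them exceeded 0.9. Each of the 5 genes was highest in the CDC20 +/+ and lowest in the AAA/AAA line. They were picked for their likeness to a Trib3 probe set with that order, so it is no further observation. Genes whose promoter window holds a CARE, 182 of those tested, had pair medians of 0.01, 0.03 and -0.07, and 61.5% of them were lower in the CDC20 pair, against 54.8% of all 6838 genes with a window. In the same pair 60% of 15 genes with an ERSE and 57.1% of 7 with an ERSE-II were lower. The share was 53.3% both for 75 genes with the XBP1 core and for 242 with the cyclic AMP response element.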

How the data were processed

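Expression was measured on 6 Affymetrix arrays, 1 per line. The authors made the values with GCRMA 2.28.0 in R 2.15.3, per the submitters' processing notes, a method built to correct background, bring arrays to one distribution and give 1 value per probe set. The deposited log2 values (0.922 to 14.393, array medians 6.156 to 6.197) were used as they are. Differences in overall brightness are removed by that step, and probe sets with _x_at or _s_at names can bind related transcripts. The array annotation and the number of arrays, not a read depth, limit the precision.

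Of 22626 probe sets 20380 named 1 gene. Each of 12393 genes was represented by its probe set of highest mean, and 8382 that reached the log2 floor of 4 on 3 arrays or more were tested with limma 3.58.1 in R 4.3.3 (lmFit, eBayes, two-sided, Benjamini-Hochberg over all genes, threshold 0.05), with no block. A model with 4 genotype groups gave the BubR1 comparison and the CDC20 minus BubR1 difference. The script was tested on simulated data. An exact permutation test of 3 against 3 cannot go below 0.1 and was not used. Deviations from the group means correlated at 0.812, 0.681 and 0.602 between lines with the same title number and at -0.673 to 0.153 between others, so the title numbers were taken to pair the lines. Standard errors, intervals and adjusted p-values are from fits with no block unless a block is named. With the block the SE of unstable minus stable went from 0.203 to 0.088 for Atf4 and from 0.177 to 0.081 for Xbp1. It went from 0.178 to 0.177 for Trib3 and from 0.104 to 0.108 for Herpud1.

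The 10 genes and all lists were chosen with earlier results of these data known. Genes named beyond the 10 were the stress sensors, the 3 with the smallest p of each pathway list in both comparisons, and the 5 most correlated with the member of largest SD. The promoter build is unrelated to the array annotation. Alternatives were other filters, the mean of probe sets or each probe set by itself, renormalization, another variance prior, array weights, the pair block and leaving out lines.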

Additional observations from a re-analysis of the deposited data

How the results depend on the processing

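The counts of genes past the threshold were 0 over all genes and 0 of the 10 in each of the 3 comparisons under every alternative that was run, the replicate block with the pair number included, which took the counts at an unadjusted p under 0.05 from 359, 264 and 133 genes to 1019, 719 and 476; leaving out a CDC20 line leaves no CDC20 minus BubR1 difference to estimate. Atf3 did not reach the filter of log2 6 or more on 3 arrays, so under that alternative the count leaves it out. Signs of differences near 0 were less stable. With the mean of probe sets, Atf4 was at -0.033 in unstable minus stable lines and -0.151 in the CDC20 minus BubR1 effect. Herpud1 was at 0.017 in unstable minus stable lines. The CDC20 minus BubR1 effect of Hspa5 moved from -0.085 to -0.256 and that of Xbp1 from -0.091 to -0.268. For Trib3 it moved from -0.748 to -0.59. In pair 10074 the further probe set of Hspa5 differed by -0.411 and those of Xbp1 by -0.012, -0.391 and -0.196. The mean for Atf4 includes its probe set below the filter, which differed by -0.295 in that pair. With a pair left out of the blocked fit, the unstable minus stable difference was -0.091 for Atf3 and 0.004 for Herpud1 without pair 9515, -0.019 for Atf4 without pair 9938, and 0.108 for Chac1 and 0.072 for Herpud1 without pair 10074. With single lines left out, the unstable minus stable difference ranged from -0.079 to 0.020 for Hspa5, -0.13 to 0.189 for Atf4, -0.112 to 0.262 for Atf3, -0.082 to 0.172 for Xbp1, -0.105 to 0.099 for Chac1 and -0.086 to 0.038 for Herpud1. The CDC20 minus BubR1 difference ranged from -0.067 to 0.092 for Ddit3, -0.069 to 0.101 for Atf4, -0.692 to 0.056 for Atf3, -0.196 to 0.013 for Xbp1 and -0.103 to 0.293 for Dnajb9. Asns, Trib3, Ddit3 and Dnajb9 (0.031 to 0.267 with single lines left out) kept their sign in unstable minus stable lines, as did Trib3, Chac1, Herpud1, Hspa5 and Asns in the other comparison, under the alternatives run. Signal over background limits Atf3, the member nearest the filter.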
